A study of Mus musculus with 15 samples.

Results

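Transcripts of 9 genes whose products fill or accompany the granules of neutrophils were followed in quadriceps muscle of 15 mice, out of 39179 genes listed for each mouse. The genes were S100a8, S100a9, Ltf, Ngp, Camp, Lcn2, Retnlg, Mmp8 and Mmp9. They were picked by name as neutrophil genes after counts of these same mice had shown such genes to be high in a single animal, 19 mo V338Y mouse 5, so that their levels in the 19 mo V338Y mice are given as a description without a test. Independent of that choice were the comparison of genotypes at 3 mo and, in part, the comparison of ages in wild-type mice.

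The study asked how errors in mitochondrial protein synthesis change ageing muscle. Mice of the C57BL/6 strain were either homozygous for the V338Y mutation of Mrps5, a protein of the small subunit of the mitochondrial ribosome, or wild-type. No treatment is named for any group. Whole quadriceps muscle was sampled at 3 mo (4 mice of each genotype) and at 19 mo (3 wild-type, 4 V338Y), and each library came from 1 mouse. In such bulk RNA, more cells of a type and more RNA per cell cannot be told apart.

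The gene counts of a mouse summed to 8250653 at the lowest and 18968132 at the highest, and 6 genes of muscle fibers made up 154939 to 295045 CPM of them in every mouse. CPM are counts scaled to a common library size, here with the factors of the TMM method, so that 3 counts, used below as the limit that a count of 0 allows, stood for at most 0.346 CPM at 3 mo. Mrps5 itself was at 23.6 ± 1.83 CPM in wild-type (SD, n = 4) and 25.7 ± 1.5 CPM in V338Y mice (SD, n = 4) at 3 mo, and at 17.6 ± 1.79 (SD, n = 3) and 17.4 ± 1.63 CPM (SD, n = 4) at 19 mo. The mutation is a change of codon, so these levels do not check the genotype labels. The methods call the mice female, with no sex given for the 19 mo V338Y mice. However, Xist was at 506 to 630 CPM in all 7 mice of 19 mo and at no more than 0.574 CPM in all 8 mice of 3 mo, while the Y-linked Ddx3y was at 163 to 202 CPM in the mice of 3 mo and at no more than 0.0826 CPM in those of 19 mo. Sex and age therefore cannot be told apart in any comparison between 3 and 19 mo.

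Neutrophils are short-lived phagocytes of the blood that mature in the bone marrow. While they mature they transcribe the genes of their granules in succession, with the proteases and myeloperoxidase of the azurophil granules first, the iron-binding and antimicrobial proteins of the specific granules next, and gelatinase and collagenase late. Mature neutrophils carry the finished granule proteins with little of the corresponding mRNA, whereas mRNA of S100a8 and S100a9 stays abundant. Healthy resting muscle holds few neutrophils outside its vessels.

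The calprotectin genes S100a8 and S100a9 encode the subunits of a calcium- and zinc-binding dimer that makes up much of the neutrophil cytosol. At 19 mo S100a8 (ENSMUSG00000056054, GRCm38 chromosome 3, positions 90668978 to 90670035) was counted 2546 times in V338Y mouse 5, 97 times in mouse 3 and 4 times each in mice 2 and 4, which is 163, 6.5, 0.400 and 0.401 CPM. The wild-type mice of the same age lay between these extremes, with 22, 14 and 18 counts or 1.37, 1.04 and 1.49 CPM. Mouse 5 stood 25.1-fold above the next mouse, and mice 2 and 4 stood below every wild-type mouse of their age.

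S100a9 (ENSMUSG00000056071, chromosome 3, positions 90692632 to 90695721), which lies beside S100a8 in a stretch of 0.027 Mb, had the same order. Its counts were 2942 in V338Y mouse 5, 136 in mouse 3, 8 in mouse 2 and 4 in mouse 4, or 189, 9.11, 0.800 and 0.401 CPM. In the 19 mo wild-type mice it was at 24, 14 and 28 counts or 1.49, 1.04 and 2.31 CPM. Mice 2 and 4 were again below all 3 wild-type mice, and mouse 5 was 20.7-fold above mouse 3.

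Ltf, Ngp and Camp belong to the specific granules and lie within 1.2 Mb of each other on chromosome 9. Ltf (ENSMUSG00000032496, positions 111019271 to 111042767) encodes lactoferrin, which binds iron. Ngp (ENSMUSG00000032484, positions 110419747 to 110423012) encodes neutrophilic granule protein, and Camp (ENSMUSG00000038357, positions 109847379 to 109849617) the antimicrobial peptide cathelicidin. Since these genes and the calprotectin pair were high in the same animal, the stretches before their starts are shown, from RefSeq on GRCm38.p6, up to 250 bases and ending before the earliest annotated start, 5′ to 3′ on the strand of the gene. Capitals mark matches on either strand to TTGCNNAA, a letter pattern bound by C/EBP factors, or to GAGGAA, the core bound by PU.1, both of which are factors of granulocyte development.
S100a8 (chr3:90668821-90668977, plus strand): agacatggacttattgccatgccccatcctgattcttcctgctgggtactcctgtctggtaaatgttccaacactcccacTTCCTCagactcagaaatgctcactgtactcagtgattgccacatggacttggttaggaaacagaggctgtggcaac
S100a9 (chr3:90695722-90695971, minus strand): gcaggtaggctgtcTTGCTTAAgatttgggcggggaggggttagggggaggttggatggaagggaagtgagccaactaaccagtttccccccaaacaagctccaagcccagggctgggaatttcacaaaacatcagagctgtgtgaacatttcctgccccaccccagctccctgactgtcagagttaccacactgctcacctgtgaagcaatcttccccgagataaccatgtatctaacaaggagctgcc
Ltf (chr9:111019042-111019270, plus strand): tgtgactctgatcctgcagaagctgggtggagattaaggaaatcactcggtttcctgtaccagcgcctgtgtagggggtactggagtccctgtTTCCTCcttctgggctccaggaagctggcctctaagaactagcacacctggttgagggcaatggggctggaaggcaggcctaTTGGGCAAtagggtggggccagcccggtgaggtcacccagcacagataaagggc
Ngp (chr9:110419558-110419746, plus strand): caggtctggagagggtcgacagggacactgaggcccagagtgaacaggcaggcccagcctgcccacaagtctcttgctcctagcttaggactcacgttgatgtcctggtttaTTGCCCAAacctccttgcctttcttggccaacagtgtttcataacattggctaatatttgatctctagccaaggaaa
Camp (chr9:109849618-109849706, minus strand): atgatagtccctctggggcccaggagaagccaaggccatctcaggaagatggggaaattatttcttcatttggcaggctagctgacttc
For counting, the full 250 bases before the RefSeq start were taken, which were at hand for 8 of the 9 genes. In Lcn2 these bases lie wholly within the annotated gene, and in S100a8, Ltf, Ngp and Camp in part. TTGCNNAA was found in 6 of the 8, namely S100a9, Ltf, Ngp, Lcn2, Mmp8 and Retnlg, and in 9.6% of 32851 promoters of the same length. GAGGAA was found in 4, S100a8, Ltf, Lcn2 and Mmp8, against 23.3% of all promoters. The TATA box TATAAA was found only for S100a8, against 12.4%, at a place within the annotated gene. A match of letters is no evidence that a factor binds there, and a missing match, as in the sequence before Camp, says only that the letters were not in that window.

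Ltf was counted 1473 times in V338Y mouse 5, 62 times in mouse 3, 32 times in mouse 4 and 10 times in mouse 2, or 94.5, 4.15, 3.21 and 1.0 CPM. The 19 mo wild-type mice had 4, 0 and 4 counts or 0.248, 0 and 0.330 CPM, so the genotypes did not overlap. None of the 8 mice of 3 mo had a count of Ltf.

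Ngp was counted 941 times in mouse 5, 41 times in mouse 3, 2 times in mouse 4 and not in mouse 2, or 60.4, 2.75, 0.200 and 0 CPM. In wild-type mice of 19 mo it was at 4, 0 and 2 counts or 0.248, 0 and 0.165 CPM, which overlapped with V338Y mice 2 and 4. Like Ltf, Ngp had 0 counts in each mouse of 3 mo.

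Camp had 574 counts in mouse 5, 25 in mouse 3, 2 in mouse 4 and 1 in mouse 2, or 36.8, 1.67, 0.200 and 0.10 CPM. The 3 wild-type mice of that age had 1 count in total, and of the 8 mice of 3 mo a single V338Y mouse had 1 count. Against the highest limit of 3 counts in a mouse of 3 mo, mouse 5 was at least 273-fold higher for Ltf and at least 175-fold higher for Ngp.

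Lcn2 (ENSMUSG00000026822, chromosome 2, positions 32384633 to 32388252) encodes lipocalin-2, a protein of the specific granules that binds bacterial siderophores and is also made by cells of other lineages. It had 489 counts in V338Y mouse 5 and 13, 34 and 29 counts in mice 2, 3 and 4, or 31.4 CPM against 1.30, 2.28 and 2.91 CPM. The wild-type mice of 19 mo had 8, 10 and 16 counts or 0.497, 0.740 and 1.32 CPM. Mouse 5 was 10.8-fold above mouse 4, and the lowest V338Y mouse overlapped with the highest wild-type mouse.

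Mmp8 (ENSMUSG00000005800, chromosome 9, positions 7558456 to 7568485), the neutrophil collagenase, was nearly absent outside mouse 5. It had 195 counts in that mouse and 2, 8 and 0 counts in mice 2, 3 and 4, or 12.5 CPM against 0.200, 0.536 and 0 CPM. The 3 wild-type mice of 19 mo had 2, 1 and 1 counts, within the range of the V338Y mice other than mouse 5.

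Retnlg (ENSMUSG00000022651, chromosome 16, positions 48872621 to 48874496), a secreted protein of the resistin family made by myeloid cells, had 227 counts in mouse 5 and 5, 11 and 4 in mice 2, 3 and 4, or 14.6 CPM against 0.50, 0.737 and 0.401 CPM. Wild-type mice of 19 mo had 1, 4 and 4 counts or 0.0621, 0.296 and 0.330 CPM. In CPM the genotypes did not overlap, on counts of 11 or fewer outside mouse 5. The lowest V338Y mouse and the highest wild-type mouse had 4 counts each, so library size alone set them apart.

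Mmp9 (ENSMUSG00000017737, chromosome 2, positions 164940780 to 164955850), gelatinase B of the late granules, which macrophages and other cells also make, stood apart from the other 8 genes. It was present in every mouse, with 374 counts in mouse 5 and 113, 151 and 99 in mice 2, 3 and 4, or 24.0 CPM against 11.3, 10.1 and 9.92 CPM. The wild-type mice of 19 mo were at 120, 105 and 61 counts or 7.45, 7.77 and 5.04 CPM. Mouse 5 was 2.12-fold above the next mouse, and all 4 V338Y mice were above all 3 wild-type mice.

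**Figure D1:**
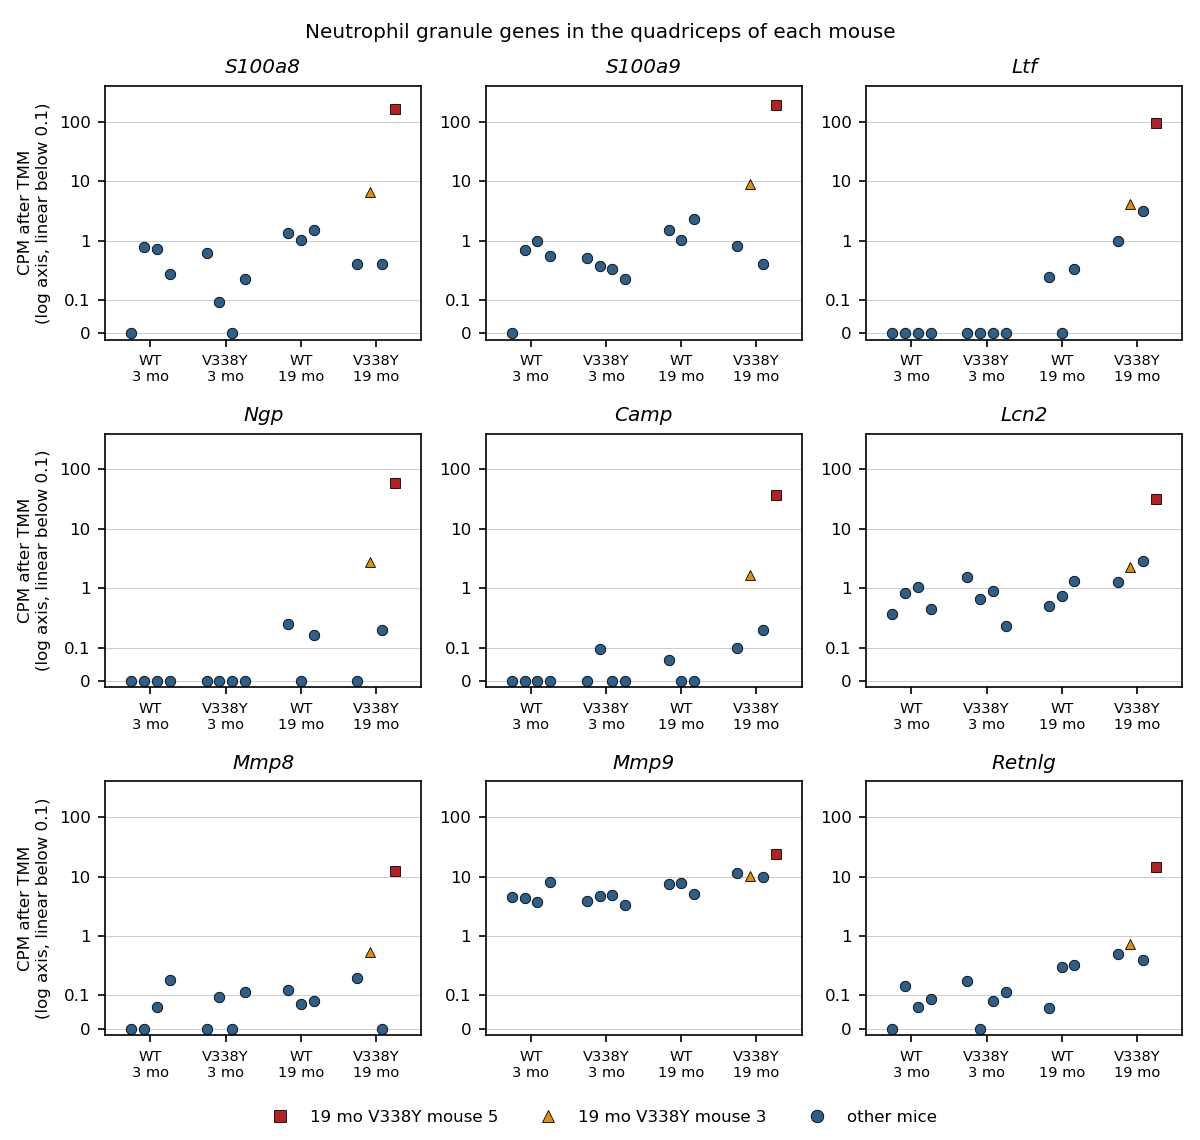
CPM after TMM scaling of each of the 9 genes (vertical axis, logarithmic above 0.1 and linear below) in each of the 15 mice, grouped by genotype and age. The square is 19 mo V338Y mouse 5 and the triangle mouse 3 of the same group. The square is the highest point in all 9 panels, from 12.5 CPM for Mmp8 to 189 CPM for S100a9, and Mmp9 is the gene with the smallest gap to the next mouse, 2.12-fold.

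All 9 genes were highest in mouse 5, as were 12.5% of 13833 genes tested between the genotypes at 19 mo, and 8 of the 9, all but Mmp9, exceeded the next mouse at least 4-fold, as did 0.340% of these genes. The genes were chosen for this pattern, so that the shares are given for scale alone. Together they took 0.0706% of the counts of mouse 5 (95% exact binomial interval 0.0692 to 0.0720, counting error only), 0.00388% in mouse 3 and 0.000400 to 0.00210% in the other 13 mice. Calprotectin transcripts made up 56.2% of this sum in mouse 5 and 41.2% in mouse 3, against 7.69% in mouse 2 and 4.55% in mouse 4, where Mmp9 was 72.4 and 56.2% of it. Without TMM scaling, with RLE size factors or with library sizes without the 10 most counted genes, all 9 genes were likewise highest in mouse 5.

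Levels of different genes were compared per kb of exon. In mouse 5 the order was S100a9 with 362, S100a8 with 235, Ngp with 49.4, Camp with 48.6, Ltf with 27.4, Retnlg with 24.6, Lcn2 with 12.0, Mmp9 with 6.78 and Mmp8 with 5.16 CPM per kb. The median of the other 14 mice had a different order, with Mmp9 first at 1.40, S100a9 at 1.2, S100a8 at 0.744, Lcn2 at 0.336, Retnlg at 0.217 and Mmp8 at 0.0323 CPM per kb, and medians of 0 for Ngp, Ltf and Camp. Among 19 mo wild-type mice the first places were taken by S100a9 with 2.86, Mmp9 with 2.11 and S100a8 with 1.97 CPM per kb, which did not separate beyond the spread between these mice.

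Mouse 3 was the next highest after mouse 5 for 7 of the 9 genes, and for most of them its level was a similar fraction of that in mouse 5. In CPM, mouse 3 reached 3.98% of mouse 5 for S100a8 (95% exact interval 3.21 to 4.87), 4.83% for S100a9 (4.03 to 5.73), 4.40% for Ltf (3.35 to 5.67), 4.55% for Ngp (3.24 to 6.22) and 4.55% for Camp (2.92 to 6.78). Mmp8 and Retnlg, on 8 and 11 counts in mouse 3, were at 4.28 and 5.06%. Lcn2 was at 7.26% (4.97 to 10.3) and Mmp9 at 42.2% (34.7 to 51.1), the latter with an interval apart from those of the other 8 genes.

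Mice 2 and 4 had another composition. Mouse 4 had 32 counts of Ltf and 4 of S100a9, a ratio of 8.0 (exact interval 2.84 to 31.1), against 0.501 (0.470 to 0.533) in mouse 5 and 0.456 (0.332 to 0.620) in mouse 3. The ratio was 1.25 in mouse 2 (0.444 to 3.64) and 0.167, 0 and 0.143 in the wild-type mice of 19 mo, with upper bounds of 0.485, 0.301 and 0.408. Mouse 4 thus held Ltf at 3.39% of mouse 5 (2.31 to 4.81) and S100a9 at 0.212% (0.0578 to 0.545).

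**Figure D2:**
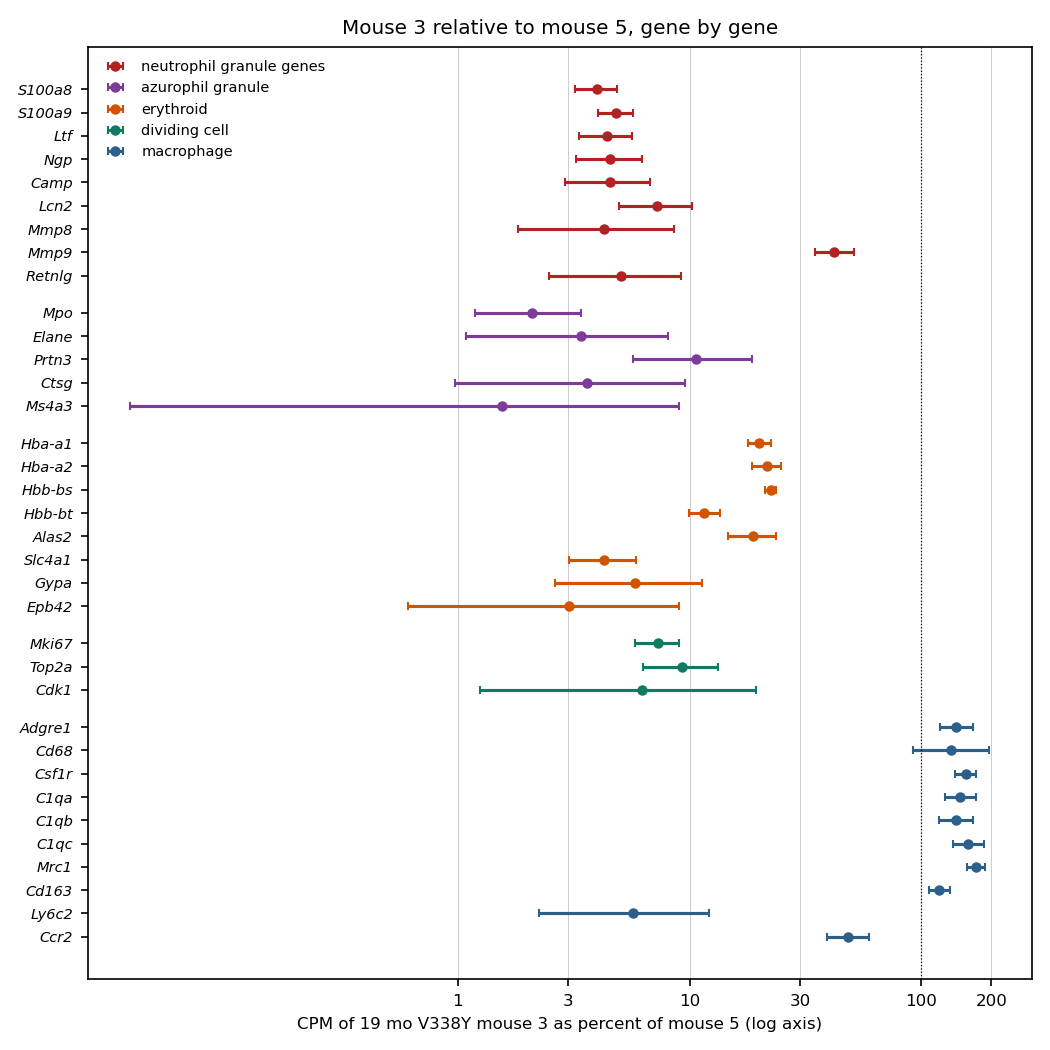
CPM of 19 mo V338Y mouse 3 as a percentage of mouse 5 (logarithmic horizontal axis) for each of the 9 genes and for genes of the azurophil granules, red cell precursors, dividing cells and macrophages, with 95% exact intervals for counting error. Of the 9 genes all but Lcn2 and Mmp9 lie at 3.98 to 5.06%, Lcn2 at 7.26% and Mmp9 at 42.2%, and 8 of 10 macrophage genes lie above 100%, with Ly6c2 at 5.71% and Ccr2 at 48.2%.

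At 3 mo, where the choice of the genes played no part, no difference between genotypes was found. Only S100a8, S100a9, Lcn2 and Mmp9 had enough counts to be tested, and 0 of these 4 had an adjusted p under 0.05 in edgeR's quasi-likelihood test, against 0.0750% of 13333 genes tested. With DESeq2 the number was likewise 0, against 0.495% of the genes tested, and at an unadjusted p under 0.05 it was 0 in edgeR, against 9.70%. For 0 of the 9 genes every V338Y mouse was above every wild-type mouse, as for 2.48% of the genes tested. In wild-type mice S100a8 was at 0, 0.780, 0.729 and 0.272 CPM and in V338Y mice at 0.632, 0.0952, 0 and 0.230 CPM, with a log2 difference of -0.76 (SE 0.86, 95% interval -2.66 to 1.14, edgeR adjusted p = 0.829). The groups overlapped, and no mouse had more than 11 counts.

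For S100a9 the wild-type mice were at 0, 0.709, 0.994 and 0.544 CPM and the V338Y mice at 0.517, 0.381, 0.331 and 0.230 CPM, a log2 difference of -0.61 (SE 0.63, 95% interval -2.0 to 0.79, edgeR adjusted p = 0.811). Lcn2 was at 0.364, 0.851, 1.06 and 0.453 CPM in wild-type and at 1.55, 0.667, 0.909 and 0.230 CPM in V338Y mice (log2 difference 0.36, SE 0.49, 95% interval -0.72 to 1.44, edgeR adjusted p = 0.860). In both genes the ranges overlapped. Mmp9, with 29 to 91 counts per mouse the best measured, was at 4.46, 4.33, 3.71 and 8.25 CPM in wild-type and 3.85, 4.76, 4.88 and 3.34 CPM in V338Y mice (log2 difference -0.28, SE 0.25, 95% interval -0.84 to 0.27, edgeR adjusted p = 0.772). Ltf and Ngp had 0 counts in all 8 mice, Camp 1 count, and Mmp8 and Retnlg 3 or fewer counts in any mouse.

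Between 3 and 19 mo in wild-type mice, which mouse 5 does not enter, 0 of the same 4 genes reached an adjusted p under 0.05 in edgeR, against 36.2% of 13657 genes tested. With DESeq2 it was again 0, against 33.9%, and 2 of the 4, S100a8 and S100a9, had an unadjusted p under 0.05 in edgeR, against 47.2%. The wild-type mice of 19 mo were 1 side of the genotype comparison in which the genes were noticed. S100a8 was at 1.04 to 1.49 CPM in 19 mo and at 0 to 0.780 CPM in 3 mo wild-type mice (log2 difference 1.43, SE 0.59, edgeR adjusted p = 0.0846), and S100a9 at 1.04 to 2.31 against 0 to 0.994 CPM (log2 difference 1.43, SE 0.60, edgeR adjusted p = 0.0900). For both genes every 19 mo mouse was above every 3 mo mouse, as for 21.7% of the genes tested, and neither passed the correction.

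Lcn2 was at 0.497 to 1.32 CPM in 19 mo and 0.364 to 1.06 CPM in 3 mo wild-type mice (log2 difference 0.24, SE 0.47, edgeR adjusted p = 0.714). Mmp9 was at 5.04 to 7.77 against 3.71 to 8.25 CPM (log2 difference 0.40, SE 0.28, edgeR adjusted p = 0.285). The value of Mmp9 rested on 3 mo wild-type mouse 4, the highest of its group, and without that mouse the log2 difference was 0.70 with an edgeR adjusted p of 0.0356. Ltf went from 0 counts in 4 mice to 8 counts in 3 mice and Ngp from 0 to 6, too few for the test.

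In the comparison of genotypes at 19 mo 8 of the 9 genes were tested, all but Mmp8, and their fold changes are given without p because this comparison drew attention to them. Across all 13833 genes 6 had an adjusted p under 0.05 in edgeR, which is 0.0434%, and 122 when mice 2, 4 and 5 of both genotypes were compared as pairs by their numbers. The log2 fold changes were 5.07 for S100a8 (SE 2.01), 4.99 for S100a9 (SE 1.97), 7.05 for Ltf (SE 2.12), 6.75 for Ngp (SE 2.44), 3.55 for Lcn2 (SE 1.24), 4.22 for Retnlg (SE 1.58) and 1.07 for Mmp9 (SE 0.35). For Camp a fold change would rest on the 1 count of the wild-type mice. With the replicate block, which pairs mice by number and leaves out V338Y mouse 3, the log2 fold changes were 3.78 for S100a8, 3.63 for S100a9, 7.04 for Ltf, 6.67 for Ngp, 3.30 for Lcn2, 4.02 for Retnlg and 1.11 for Mmp9. Groups without overlap were found for 4 genes, Ltf, Camp, Mmp9 and Retnlg, and for 4.48% of the genes tested. For Camp the lowest V338Y mouse and the highest wild-type mouse had 1 count each, and for Retnlg 4 counts each. In both genes library size alone set these mice apart.

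Without mouse 5 the fold changes differed between the genes. S100a8 then had a log2 fold change of 1.02 (SE 0.89) and S100a9 of 1.2 (SE 0.91). Without mice 3 and 5 the values were -1.63 (SE 0.47) and -1.36 (SE 0.54). That selection was made after the data were seen and drops the highest mice of both genes. The negative sign therefore only restates that mice 2 and 4 lay below all wild-type mice of their age. Ltf kept its sign, with 3.85 (SE 0.74) without mouse 5 and 3.43 (SE 0.83) without mice 3 and 5, although these values rest on 8 counts in wild-type mice. Lcn2 was at 1.40 (SE 0.44) and 1.37 (SE 0.53), and Mmp9 at 0.65 (SE 0.19) and 0.69 (SE 0.22). The other 4 genes had too few counts once mouse 5 was left out.

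**Figure D3:**
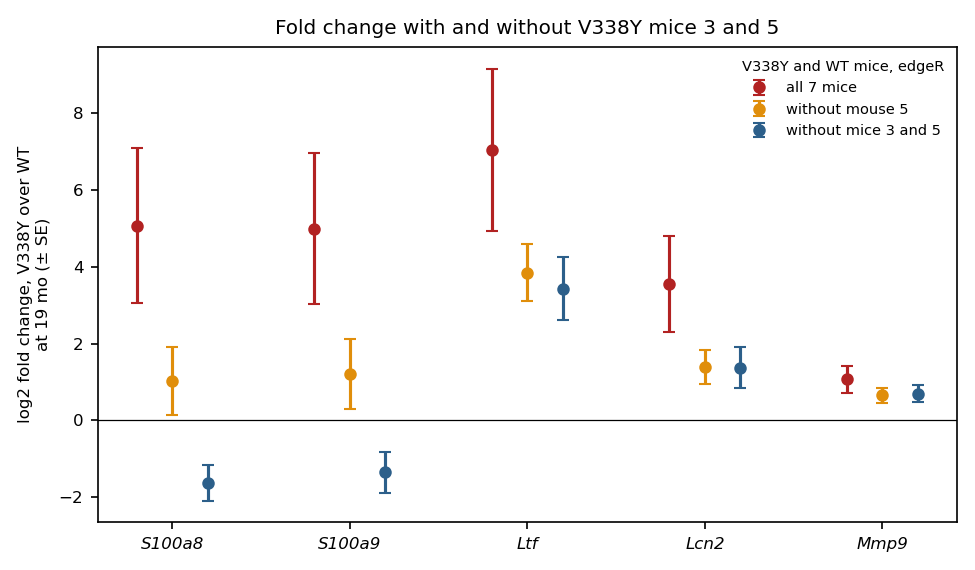
Log2 fold change of V338Y over wild-type mice at 19 mo (vertical axis, ± SE from edgeR) for the 5 genes that could be fitted in all 3 selections of mice, with all 7 mice, without V338Y mouse 5, and without V338Y mice 3 and 5. S100a8 and S100a9 go from 5.07 and 4.99 to -1.63 and -1.36, while Ltf, Lcn2 and Mmp9 stay above 0. The last selection was made after the data were seen and drops the highest mice of S100a8 and S100a9.

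The comparison of 19 with 3 mo in V338Y mice also holds mouse 5 and shares the 19 mo V338Y mice with the one above. The log2 fold changes were 7.22 for S100a8 (SE 2.08), 7.0 for S100a9 (SE 1.96), 3.40 for Lcn2 (SE 1.05), 5.25 for Retnlg (SE 1.51) and 1.74 for Mmp9 (SE 0.30), and those of Ltf, Ngp and Camp have no measured base at 3 mo. The value of S100a8 was 8.65 without 3 mo V338Y mouse 1. Pairing mice by number, which leaves out 19 mo mouse 5 and 3 mo mouse 1, gave 4.38 for S100a8, 3.18 for S100a9, 1.75 for Lcn2, 2.93 for Retnlg and 1.28 for Mmp9. S100a8, S100a9 and Retnlg entered this fit only because the count filter still included mouse 5. Their values rest on mouse 3, with 97, 136 and 11 counts, against no more than 8 counts in mice 2 and 4. Without mouse 5 alone S100a8, S100a9 and Retnlg did not pass the count filter, and the values were 1.27 for Lcn2 (SE 0.46) and 1.33 for Mmp9 (SE 0.16). Of the genes tested 46.9% were called between the ages in V338Y mice and 24.4% were called higher at 19 mo. Of the 9 genes 4, Ltf, Camp, Mmp9 and Retnlg, had no overlap, as had 20.3% of the genes tested in this direction. For Camp it again rested on 1 count in each of the nearest mice, and for Retnlg on 4 counts at 19 mo against 3 at 3 mo.

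Other genes of the neutrophil program were taken from lists, which were written with earlier results of these data known. The genes of the azurophil granules followed the specific granules. All 5 of them were highest in mouse 5, with a sum of 81.6 CPM against 2.68 CPM in mouse 3, the next mouse, and 0 to 0.600 CPM in the other 13. Mpo, the myeloperoxidase, had 799 counts in mouse 5, 16 in mouse 3 and 0 in all wild-type mice of 19 mo, and mouse 3 was at 2.09% of mouse 5 (exact interval 1.19 to 3.42). Elane, neutrophil elastase, had 154 counts against 5, Prtn3, proteinase 3, 137 against 14, and Ctsg, cathepsin G, 115 against 4.

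Of 13 further genes of granules and secretion 9 were highest in mouse 5. They included the chitinase-like Chil3 with 1282 counts in mouse 5 and 46 in mouse 3, and Cd177, a surface antigen of neutrophils, with 248 and 11. Lyz2, the lysozyme that macrophages share, was at 175 CPM in mouse 5 and 179 CPM in a 3 mo V338Y mouse. Of 19 receptors and surface genes 16 were highest in mouse 5, with a sum 1.82-fold that of the next mouse. The exceptions were Ccr1, Il1r2 and Itgam, the most counted of the list, at 21.8 CPM in mouse 5 and 23.2 CPM in mouse 2. Itgb2 and Alox5ap, next in counts, were 1.73- and 1.47-fold above the next mouse. Csf3r, the receptor of granulocyte colony-stimulating factor, was at 8.34 against at most 1.67 CPM, and Cxcr2, the receptor of neutrophil chemokines, at 3.98 against 0.284 CPM. Ly6g, a surface marker of mature mouse neutrophils, had 8 counts in mouse 5 and 1 in mouse 3.

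All 6 subunits of the NADPH oxidase, which makes superoxide in phagocytes, were highest in mouse 5, and their sum of 81.1 CPM was 2.06-fold that of the next mouse. Of 7 transcription factors of granulocytes 5 were highest there, with a sum 1.10-fold that of the next mouse. Cebpe, needed for specific granules, had 21 counts against at most 2 in another mouse. Cebpb and Cebpd were 1.09- and 1.15-fold above the next mouse. Cebpa was at 19.8 CPM in mouse 5 and 41.0 CPM in mouse 4, and Spi1 at 3.59 CPM in mouse 5 and 4.30 CPM in mouse 2. Signals that draw neutrophils into tissue stayed near 0 in every mouse. Cxcl2, Cxcl3 and Csf3 had 0 counts in mouse 5, Tnf 9, Il1a 7, Cxcl1 5, Cxcl5 3 and Il6 1. Il1a and Cxcl5 were highest in that mouse, on these few counts. The 8 signals summed to 1.60 CPM in mouse 5 and to 0.182 to 0.976 CPM elsewhere. Tlr4, a receptor of calprotectin, was at 40.2 CPM in mouse 5 and up to 35.5 CPM in the other mice, and Timp2, an inhibitor of metalloproteases, at 61.8 CPM in mouse 5 and 135 CPM in mouse 3.

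In the genotype comparison at 3 mo 0 of the 26 genes of these lists that were tested reached an adjusted p under 0.05 in edgeR or in DESeq2, against 0.0750 and 0.495% of all genes tested. At an unadjusted p under 0.05 in edgeR there were 3, against 9.70% of all genes. At 19 mo, the comparison that drew attention to neutrophil genes, the lists are described without a test. Among genes that passed the count filter, the median log2 fold change at 19 mo was 1.24 for 7 further granule genes. It was 0.86 for 8 surface genes, 1.0 for 6 oxidase subunits, 0.60 for 5 transcription factors and 0.27 for 5 receptors and inhibitors. For all genes tested it was 0.01. Some of these genes, such as Chil3 and Cd177, passed the filter only through V338Y mice 3 and 5, so the granule median rests in part on these mice. With age in wild-type mice 10 of 27 genes of these lists were called in edgeR, a share near the 36.2% of all genes tested. Among them 2 of 6 oxidase subunits rose, Cybb by 0.84 on the log2 scale (SE 0.18, edgeR adjusted p = 0.00802) and Rac2 by 1.06 (SE 0.33, edgeR adjusted p = 0.0324). Of 7 surface genes tested 1 rose, Alox5ap, which serves leukotriene synthesis (log2 0.69, SE 0.22, edgeR adjusted p = 0.0341), and Csf3r did not pass the test (log2 1.09, SE 0.40, edgeR adjusted p = 0.0601). Among 5 further granule genes Anxa1 rose and Hp and Wfdc21 fell, by 2.83 (SE 0.26) and 2.92 (SE 0.73) on the log2 scale. Tlr4, Lrp1 and Timp2 rose among 4 receptors and inhibitors tested, and the transcription factor Runx1 by 1.93 (SE 0.21, edgeR adjusted p = 0.000333). Across all 13657 genes tested in this comparison, 2505 were called higher at 19 mo and 2435 lower. Macrophages express several of the listed genes, and 5 of 9 macrophage genes tested were called higher. The part of macrophages in the result was not tested.

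Markers of other cell types were set beside the 9 genes, and their part in the result was not tested. Of 8 erythroid genes 8 were highest in mouse 5, with a sum of 860 CPM against 98 to 433 CPM in the other mice. The band 3 anion exchanger Slc4a1 had 952 counts in mouse 5 and 39 in mouse 3, or 4.28% (exact interval 3.02 to 5.89), whereas the globin Hbb-bs was at 22.4% of mouse 5 in mouse 3 and 58.6% in mouse 2. All 5 markers of dividing cells were highest in mouse 5, with a sum of 116 CPM against 0.994 to 9.44 CPM. Mki67 had 1304 counts in mouse 5 and 91 in mouse 3.

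Eosinophil genes were highest in mouse 5 for 3 of 4, with 252 counts of Prg2 against 23 in mouse 3, and platelet genes for 6 of 7, with a sum of 36.2 CPM against at most 16.8 CPM. Of 5 bone cell genes 4 were highest there, among them Ibsp with 46 counts against at most 8, and the osteocalcin genes Bglap and Bglap2 had 3 counts each in mouse 5. Macrophage genes did not follow this order. Of 10 such genes 2, Ly6c2 and Ccr2, which mark inflammatory monocytes, were highest in mouse 5, and the sum was 237 CPM in mouse 5 against 159 to 344 CPM in the other mice. Ly6c2 was at 8.21 CPM in mouse 5 against at most 0.469 CPM elsewhere. Ccr2 was at 19.3 CPM, nearly level with a 19 mo wild-type mouse at 19.1 CPM. Markers of B cells, mast cells and adipocytes were highest in mouse 5 for 0 of 5 genes each, T cell markers for 2 of 6 and precursors of B cells for 2 of 6, with no more than 3 counts of any precursor gene in that mouse.

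**Figure D4:**
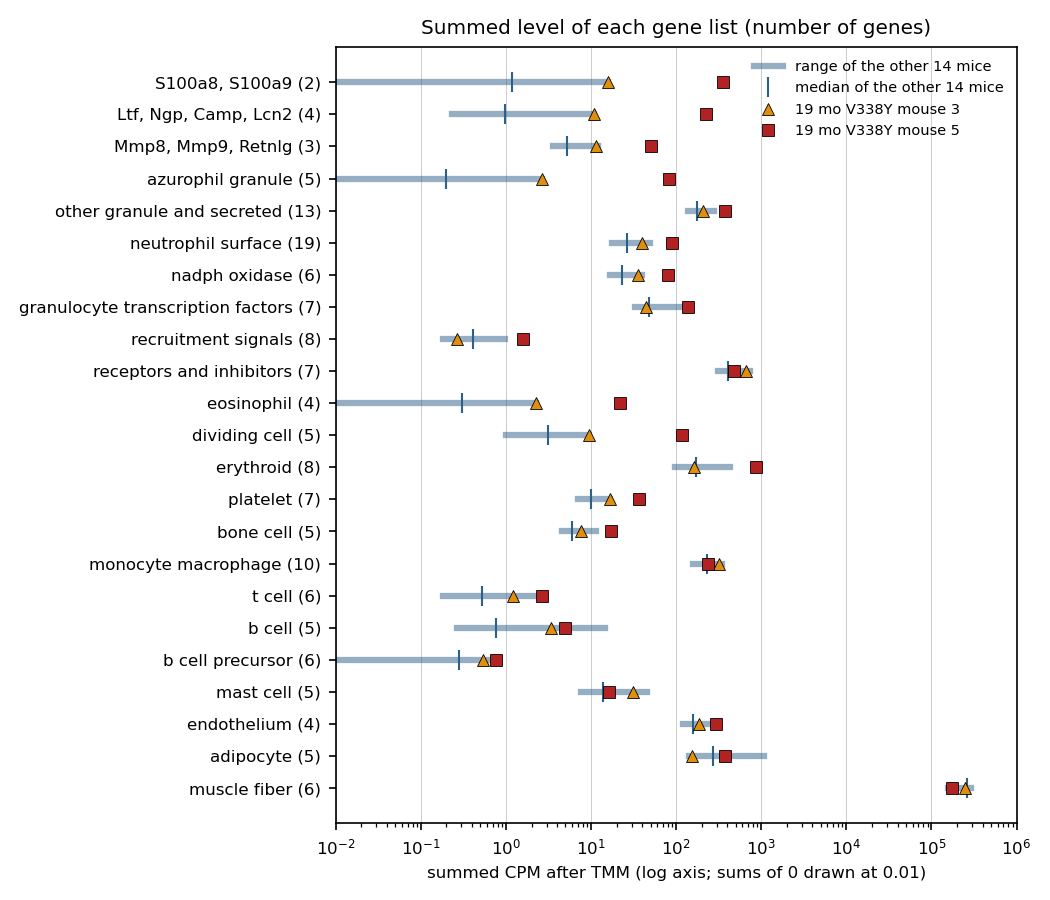
Summed CPM of each gene list (logarithmic horizontal axis) in 19 mo V338Y mouse 5 (squares) and mouse 3 (triangles), with the range and median of the 14 mice other than mouse 5. Mouse 5 lies to the right of the range for the neutrophil lists other than receptors and inhibitors, for eosinophil, dividing cell, erythroid, platelet and bone cell genes and, on no more than 3 counts a gene, for precursors of B cells, and within it for receptors and inhibitors, macrophage, T cell, B cell, mast cell, endothelial, adipocyte and muscle fiber genes.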

How the data were processed

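Single-end reads of a stranded kit were obtained from quadriceps RNA of 15 mice. The authors estimated an expected count per gene with RSEM and deposited it as whole numbers, without normalization; RSEM divides reads that match several genes between them. The labels name GRCm38. Symbols, positions and exon lengths came from GENCODE M21 on GRCm38. Groups followed the labels.

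A gene was tested if 50% or more of the mice in 1 compared group had 10 or more counts. Tests were run in R 4.3.3 with edgeR 4.0.16 (TMM, quasi-likelihood test, Benjamini-Hochberg adjustment, threshold 0.05), in a fit of the compared groups. The code was tested on simulated data. The 9 genes, the lists and the comparisons were chosen with earlier results of these data known. Named genes are the 9 members, genes of the lists, and the 10 genes outside them with the highest ratio of mouse 5 to the next mouse (0.5 CPM added).

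Alternatives were RLE size factors, DESeq2 1.42.0, no filter, unscaled CPM, library sizes without the 10 most counted genes, a fit of all 15 mice, each mouse left out, and a block by mouse number. At 19 mo the deviations of same-numbered mice from their group means had correlations of 0.135, 0.194 and 0.359 across genes for mice 2, 4 and 5. In the other comparisons they were -0.254 to 0.150, which overlaps with the values at 19 mo, so they do not show that the numbers mark pairs. The main fits therefore used no pairs, and the block by number was run in every comparison as an alternative. Between ages the same number names different mice. The highest correlation at 19 mo, 0.410, was between mice of different numbers, wild-type mouse 2 and V338Y mouse 3. The selection without mice 3 and 5 was added after the data were seen. The labels do not say whether mice shared a litter or cage. Values of some genes that the rule names are not reported here.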

Additional observations from a re-analysis of the deposited data

Results flagged for a closer look

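In 19 mo V338Y mice the highest animal, mouse 5, lay farther from its group than Dixon's limit of 0.829 for 4 samples in all 9 genes. The gap between mouse 5 and the next mouse made up 0.963 of the range of the group for S100a8, 0.954 for S100a9, 0.966 for Ltf, 0.955 for Ngp, 0.957 for Camp, 0.947 for Lcn2, 0.957 for Mmp8, 0.902 for Mmp9 and 0.976 for Retnlg. The genes were chosen because of this mouse, so the 9 values restate that choice, describe 1 library and are no test. Another 2 groups passed the limit. For Camp in 3 mo V338Y mice the ratio was 1.0, on a single count in mouse 2 and none in the others. For Mmp9 in 3 mo wild-type mice it was 0.834, with mouse 4 at 8.25 CPM against 3.71 to 4.46 CPM in the other 3. Chance passes this limit in about 1 in 20 groups, a rate that does not bear on the 9 values of mouse 5.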

How the results depend on the processing

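For genotype at 3 mo the 10 genes with an adjusted p under 0.05 became 66 with DESeq2, 33 without the filter and 3 to 14 when a mouse was left out, and 0 of the 9 genes were called in each of these fits. For age in wild-type mice the 4940 genes became 2249 with the replicate block and 3431 to 4837 when 1 mouse was left out, and 0 to 1 of the 9 genes were called, the 1 being Mmp9 without 3 mo wild-type mouse 4. For genotype at 19 mo the 6 genes became 62 with DESeq2, 14 without the filter, 122 with the replicate block, 29 without V338Y mice 3 and 5, and 2 to 7 when 1 mouse was left out. For age in V338Y mice 6505 genes became 5527 with the replicate block and 5182 to 6448 when 1 mouse was left out.

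Among single genes 6 log2 differences changed sign. When 1 mouse was left out, Lcn2 at 3 mo ranged from -0.16 (without V338Y mouse 1) to 0.66 and Mmp9 at 3 mo from -0.42 to 0.024 (without wild-type mouse 4). With age in wild-type mice Lcn2 was at -0.12 with the replicate block and ranged from -0.21 (without 19 mo mouse 5) to 0.53. S100a8 and S100a9 at 19 mo were at -1.63 and -1.36 without V338Y mice 3 and 5, the highest mice of both genes. The cause was not tested, beyond the mice left out. The block keeps mice whose number is in both groups, which leaves out none at 3 mo, V338Y mouse 3 at 19 mo, 3 mo mice 1 and 3 and 19 mo mouse 5 for age in wild-type mice, and 3 mo mouse 1 and 19 mo mouse 5 for age in V338Y mice. The block kept the count filter of all mice of a comparison. Ngp, Camp, Mmp8 and Retnlg passed that filter in no comparison without mouse 5. P-values of the main fits rest on 3 or 4 mice a group, with the spread between mice estimated in part across all genes. Some fits with mice left out had fewer mice in a group.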

Other observations

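Beyond the lists, the 10 genes whose pattern over the 15 mice was most like that of the neutrophil genes were found by the ratio of mouse 5 to the next mouse, with 0.5 CPM added to both. Among them were Abca13, Hist1h1b, Dnah8, Kif11, Ctse, Igha, Hist1h2bg and Knl1, with ratios of 10.6, 6.62, 6.29, 6.24, 6.02, 5.76, 5.40 and 5.38. Abca13, a lipid transporter, had 253 counts in mouse 5 and 16 in mouse 3. Kif11 and Knl1, which act in mitosis, had 147 and 118 counts in mouse 5 against 15 and 11 in mouse 3. Igha, the constant region of immunoglobulin A, had 280 counts in mouse 5 and 37 in mouse 3. On the same measure S100a8 was at place 2 of 13833 genes, Ltf at 4, S100a9 at 6, Ngp at 7 and Camp at 8, and Mmp9 at 119.

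Muscle genes of mouse 5 differed too. Myh1, the myosin of fast IIX fibers, was at 14824 CPM in mouse 5 and at most at 9020 CPM in another mouse, and Myh2, the myosin of IIA fibers, at 4870 against 4242 CPM. Myh4, the myosin of IIB fibers, was at 22361 CPM in mouse 5 and at 39801 CPM or more in the other mice. Acta1 and Ckm were also lowest in mouse 5, at 11467 and 6285 CPM, whereas Ttn was not.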
